A study of Mus musculus with 9 samples.

Results

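The secreted Wnt antagonists of the DKK and SFRP families and the LRP co-receptors that DKK proteins act on were followed in retinal progenitor cells made from mouse embryonic stem cells and in primary retinal progenitors. The set held 10 of the 18193 genes that the array's single-gene probe sets name: Dkk1, Dkk2, Dkk3, Sfrp1, Sfrp2, Sfrp5, Frzb, Kremen1, Lrp5 and Lrp6. Its members were all probe sets that the platform annotation gives to exactly 1 of these symbols, which were 21 of 45037 probe sets on the array. Of these, 18 probe sets from 9 genes passed a filter on dim signal, and Sfrp5 did not.

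Wnt proteins bind a Frizzled receptor and a co-receptor, Lrp5 or Lrp6, which leads to stabilised beta-catenin and to transcription through TCF and LEF factors. DKK1 and its relative DKK2 bind the LRP co-receptors, and Kremen proteins take up DKK-bound LRP from the cell surface, while DKK3 is a divergent family member that does not act as a classical LRP antagonist. SFRP proteins and Frzb instead carry a Frizzled-like domain and bind Wnt proteins outside the cell. In the vertebrate head, Wnt antagonists are known for protecting anterior neural and eye tissue from posteriorising Wnt signals.

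Affymetrix arrays compared 3 groups with 3 arrays each, described in the labels as biological repeats. The ESC-RPCs came from the 46C embryonic stem cell line, made by gene targeting in E14Tg2a.IV cells, so both ESC-RPC groups share 1 parental line. Both passed through embryoid bodies over 3 days with SB431542, an inhibitor of Nodal receptors, and a sort for Sox1-positive cells (35.8%) at day 7. Afterwards both were kept in N2 medium that held 10 µM of DAPT, which blocks gamma-secretase and so Notch, together with bFGF at 20 ng/ml. The treated group received 1 ng/ml recombinant DKK1 for 1 day, and the other group received none. The primary RPCs were untreated and came from the neural retina of 1-day-old C57 mice, a different genetic background from that of the stem cell line. The labels call them cultured in one field and dissociated in another, and do not say how many animals made up an array. The treatment added DKK1 as protein, which an array of transcripts does not measure.

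Values are MAS5 intensities, in linear units. Each array's own 40th percentile served as the line for dim signal, 45.6 to 47.7 on ESC-RPC arrays and 44.7 to 52.9 on primary arrays. Arrays have no read depth, so precision depends on the number of arrays, a gene's spread between them and its signal over background. Between the ESC-RPC groups, a log2 difference carried a standard error of 0.15 at the median gene. Levels are not compared between genes, since probe sets differ in brightness. In these bulk samples, fewer cells of a type and less RNA per cell cannot be told apart.

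The primary cells carried the markers of their label and the ESC-RPCs carried them in part. The summed intensity of 8 retinal progenitor markers, Sfrp2 left out, was 36982 to 43116 on primary arrays, 17868 to 18927 on untreated and 18287 to 18617 on DKK1-treated arrays. Sox2 was the largest part of the ESC-RPC sums, with means of 10363.5 in untreated and 8493 in primary cells. Fgf15 was also higher in untreated cells, at 3778 against 1390, and the other 6 were lower. Six6, 1 of these, measured 46.0 in untreated and 4386 in primary cells. Rax, an eye field homeobox gene, measured 30.9, 1.66 and 4.88 on treated arrays and 7.47, 50.2 and 27.0 on untreated ones, so that 1 of the 6 exceeded the dim line, against 3939 ± 943 (SD, n = 3) in primary cells. Markers of other cells moved with the same contrast. Of 11 mesenchyme markers 9 rose and 1 fell in untreated ESC-RPCs relative to primary cells, with a summed intensity of 21015 to 25096 on untreated, 21301 to 24625 on DKK1-treated and 3421 to 3807 on primary arrays. Col3a1, a fibrillar collagen, measured 8541 ± 796 in untreated and 41.5 ± 17.1 in primary cells. None of the 11 was below the dim line throughout the ESC-RPC arrays, and 3 were on all primary arrays. The sum of 7 neural progenitor markers was 46300.4 to 49627 on ESC-RPC arrays and 40778 to 45809 on primary arrays. Its largest part was Fabp7, at 24632.5 in untreated and 14187 in primary cells. These sums hide differences in both directions, as 5 of the 7 had a higher mean log2 value in untreated cells and 2 a lower one. The untreated and primary means were 2831 and 24.4 for Sox1, dim on all primary arrays. They were 1323 and 10035 for Pax6 and 2660 and 4295 for Msi1. The sum of 7 pluripotency markers was 17538 to 22026 on ESC-RPC arrays against 424 to 748 on primary arrays, and that of 6 photoreceptor markers was 6389 to 7806 against 38091 to 52665. Otx2 and Neurod1 made up most of the ESC-RPC photoreceptor sums, at 5470 and 1449 in untreated cells. Of the 6 photoreceptor genes, 3 were below the dim line on all ESC-RPC arrays. Sums over 6 Müller glia markers, Dkk3 left out, were 33326 to 36285 against 25810 to 28119, carried by Vim. Vim averaged 24989 in untreated and 16039 in primary cells. The untreated and primary means were 142 and 414 for Rlbp1 and 6130 and 8452 for Glul, both lower in ESC-RPCs. They were 249 and 13.0 for Aqp4, 2069 and 1139.5 for Slc1a3, and 1311 and 770 for Clu. The remaining sums were 371 to 429 against 328 to 459 for pigment epithelium, 164 to 565 against 1092 to 1362 for lens, 264 to 343 against 5766 to 7660 for endothelium, carried by Kdr, and 114 to 221 against 868 to 1491 for microglia. Kdr measured 74.4 ± 6.45 in untreated and 6063 ± 1113 in primary cells. Of the other 5 endothelial genes, the untreated and primary means were 81.8 and 269 for Cldn5, 32.9 and 58.6 for Cdh5, 4.65 and 5.48 for Tie1, 33.6 and 30.7 for Tek, and 73.5 and 50.7 for Pecam1. The part of these other cells in the differences below was not tested.

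Upstream sequence was on hand for 5 of the 10 genes, and the 4 of these that rose in ESC-RPCs relative to primary cells are shown. Each run is the 250 bases before the annotated start, from RefSeq on GRCm38.p6, read 5′ to 3′ on the gene's strand. Capitals mark matches to CTTTGAA or CTTTGAT and to TATAAA, the TATA box, all searched on both strands. CTTTGAA and CTTTGAT are forms of the core that TCF and LEF factors recognise, and its other forms were not searched.
Dkk1, chr19:30549497-30549746, minus strand: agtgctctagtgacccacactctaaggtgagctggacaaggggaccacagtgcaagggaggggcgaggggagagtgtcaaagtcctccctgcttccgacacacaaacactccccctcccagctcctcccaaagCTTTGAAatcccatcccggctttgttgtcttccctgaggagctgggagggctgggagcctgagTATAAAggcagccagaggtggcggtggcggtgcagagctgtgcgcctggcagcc
Dkk2, chr3:132085042-132085291, plus strand: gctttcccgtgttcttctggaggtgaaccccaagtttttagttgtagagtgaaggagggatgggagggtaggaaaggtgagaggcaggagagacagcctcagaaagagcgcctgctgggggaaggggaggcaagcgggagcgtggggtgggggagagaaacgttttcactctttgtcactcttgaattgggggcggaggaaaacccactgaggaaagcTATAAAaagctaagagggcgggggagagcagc
Sfrp2, chr3:83766071-83766320, plus strand: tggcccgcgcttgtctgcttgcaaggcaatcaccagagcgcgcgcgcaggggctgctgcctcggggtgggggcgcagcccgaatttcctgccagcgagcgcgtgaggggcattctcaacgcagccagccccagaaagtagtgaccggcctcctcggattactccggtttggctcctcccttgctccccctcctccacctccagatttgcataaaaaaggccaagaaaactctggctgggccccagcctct
Frzb, chr2:80447397-80447646, minus strand: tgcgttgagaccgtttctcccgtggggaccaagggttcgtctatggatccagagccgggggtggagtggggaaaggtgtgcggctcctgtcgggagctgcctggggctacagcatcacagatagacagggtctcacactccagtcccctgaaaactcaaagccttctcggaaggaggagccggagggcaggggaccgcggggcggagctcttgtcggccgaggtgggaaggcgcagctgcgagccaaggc
The searched forms of the TCF/LEF core occurred once, in the Dkk1 window, starting 117 bases before the start on the gene's strand. Of 32817 windows of this length 7.48% held such a match. The TATA box occurred 54 bases before the start of Dkk1 and 32 bases before that of Dkk2, and 12.4% of all windows held it. The windows of Sfrp2 and Frzb held neither, and each had 16 CG dinucleotides against 6 for Dkk1, 7 for Dkk2 and a median of 6 over all windows. A match is a stretch of letters, not a measured binding site.

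Between untreated ESC-RPCs and primary RPCs, the members differed in both directions. Dkk1, Dkk2, Sfrp1, Sfrp2 and Frzb rose in ESC-RPCs, and Dkk3, Kremen1 and Lrp5 fell. In limma with Benjamini-Hochberg adjustment over 13320 genes, 8 of the 9 genes that passed the dim-signal filter were called, beside 53% of all genes tested. Of the members 5 were higher, beside 26.1% of all genes, and 3 lower, beside 26.9%. All 9 had groups that did not overlap, beside 60% of all genes. The median log2 difference of the 9 was 1.56, or 1.49 with genes that were dim in one group set at their bound, beside -0.01 over all genes, or -0.0037 with bounds. A gene that passed the filter only where it was bright had to differ. This holds for Lrp5, Dkk1 and Dkk2 and nearly so for Frzb. The counts above, and the p-values of those genes against primary cells, therefore describe the set and lend it no support.

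**Figure D1:**
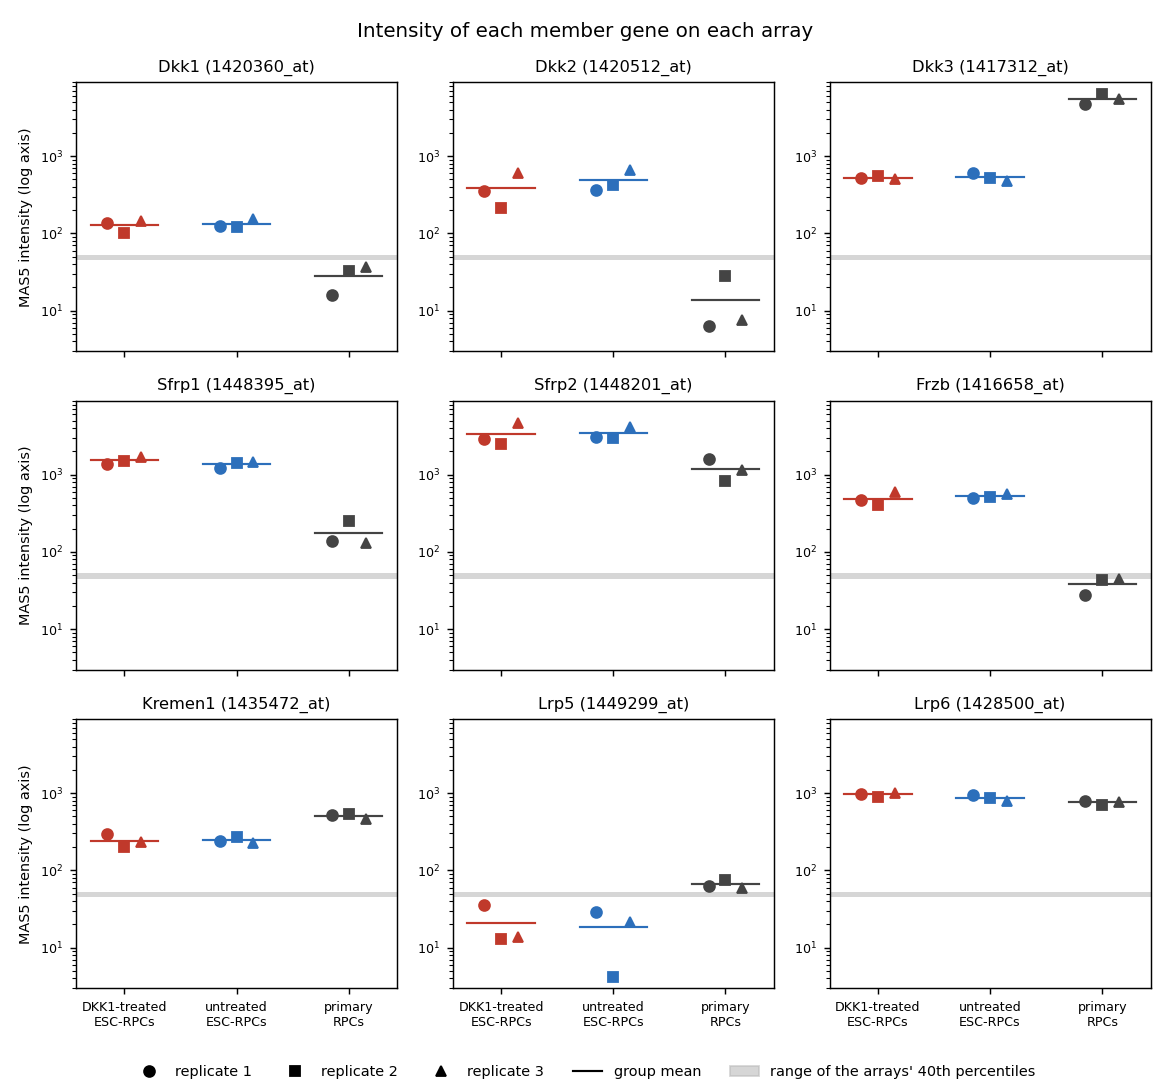
MAS5 intensity on a log axis for the 9 genes that passed the filter, 1 panel per gene with its probe set, for 3 arrays in each of DKK1-treated ESC-RPCs, untreated ESC-RPCs and primary RPCs; symbols give the replicate number, bars the group mean, and the grey band the range of the arrays' 40th percentiles. Dkk1, Dkk2, Sfrp1, Sfrp2 and Frzb lie higher in both ESC-RPC groups than in primary cells, Dkk3, Kremen1 and Lrp5 lie lower, and the ESC-RPC groups overlap in every panel.

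Among the DKK ligands, Dkk1 measured 138, 101 and 145 on DKK1-treated replicates 1, 2 and 3, and 126, 123 and 154 on the untreated ones. On the primary arrays it measured 16.1, 32.8 and 36.4, all below the dim line. Dkk1 was therefore at least 2.82-fold higher in the untreated group than in the primary one (limma adjusted p = 0.000183) and at least 2.67-fold higher in treated ones (limma adjusted p = 0.000229). Here and below, an adjusted p beside an "at least" fold comes from the fit to measured values and does not test the bound. A second Dkk1 probe set, 1458232_at, was dim on all 9 arrays, at 22.2 to 33.1 in treated and 15.4 to 32.4 in untreated cells, and stood at the deposited floor of 1 on all primary arrays.

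Dkk2, which like Dkk1 binds LRP co-receptors, measured 357, 210.2 and 604 in treated and 367, 423 and 662 in untreated cells. In primary cells it measured 6.41, 27.8 and 7.57. The ESC-RPC arrays were all well above the dim line and the primary arrays all below it. The difference was at least 9.90-fold for untreated cells (limma adjusted p = 1.76e-05) and at least 7.53-fold for treated cells (limma adjusted p = 2.98e-05).

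Dkk3 went the other way. It measured 524, 551 and 507 in treated cells, 606, 518 and 471 in untreated cells, and 4768, 6322 and 5489 in primary cells. Every primary array was higher than every ESC-RPC array. The log2 difference of untreated from primary cells was -3.38 ± 0.13 (SE, limma adjusted p = 1.75e-08), and that of treated from primary cells was the same to 2 decimals (adjusted p = 1.67e-08). The second Dkk3 probe set, 1448669_at, gave a log2 difference of -3.29 ± 0.13 between untreated and primary cells, with primary arrays at 3527 to 4676 and ESC-RPC arrays at 385 to 461. Dkk3 is known in the retina as a gene of progenitors and Müller glia. In these arrays 4 of 7 Müller glia genes, Dkk3 being 1 of the 7, rose in untreated ESC-RPCs and 3 fell.

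Of the Wnt-binding antagonists, Frzb rose in ESC-RPCs. It measured 476, 399 and 594 in treated cells, 494, 507 and 562 in untreated cells and 28.0, 43.6 and 44.9 in primary cells. The groups were far apart, and 1 of the 3 primary arrays reached the dim line, at 44.93 against 44.90. With the other primary arrays set at their dim lines, Frzb was at least 10.98-fold higher in untreated (limma adjusted p = 2.64e-07) and at least 10.2-fold higher in treated cells (limma adjusted p = 3.35e-07). The second Frzb probe set, 1448424_at, was dim on all primary arrays, at 9.42, 19.1 and 13.9. There the difference was at least 2.51-fold for untreated and at least 2.29-fold for treated cells.

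Sfrp2, a gene of embryonic retinal progenitors, was above the dim line on all 9 arrays. It measured 2866, 2505 and 4582 in treated, 3041, 3005 and 4186 in untreated and 1612, 817 and 1142 in primary cells. The log2 difference was 1.56 ± 0.27 for untreated (limma adjusted p = 0.000682) and 1.48 ± 0.27 for treated cells (limma adjusted p = 0.000922). Sfrp2 thus rose in the same cells in which 6 of 9 tested retinal progenitor genes, a list that includes Sfrp2, fell.

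Sfrp1 had 5 probe sets, and they did not show the same size of difference. The brightest, 1448395_at, measured 1372, 1485 and 1711 in treated, 1205, 1396 and 1452 in untreated and 139.9, 252 and 128 in primary cells. Its log2 difference was 3.02 ± 0.22 for untreated (limma adjusted p = 1.77e-06) and 3.20 ± 0.22 for treated cells (limma adjusted p = 1.2e-06). In a limma fit of 29052 single probe sets, the log2 difference of untreated from primary cells was 2.13 ± 0.26 for 1416594_at, 1.999 ± 0.17 for 1438620_x_at, 1.117 ± 0.28 for 1460187_at and 0.80 ± 0.20 for 1428136_at. All 5 were called (adjusted p from 1.14e-06 to 0.00747). With the mean of its probe sets in place of the brightest, the difference was 1.81.

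Within an array, probe sets of Sfrp1 can be set against each other. The log2 intensity of 1448395_at minus that of 1428136_at, taken within each array, was 0.86, 1.16 and 1.14 on untreated arrays and 0.85 to 1.03 on treated ones. On primary arrays it was -1.004, -1.10 and -1.41, and the groups did not overlap. The mean of this difference was 2.22 higher in untreated than in primary cells, the largest of the 9 pairs of member probe sets compared. An exact two-sided permutation test over the 3 and 3 arrays gave p = 0.1, the smallest this design allows (0.15 after Benjamini-Hochberg adjustment over the 9 pairs), so the test could not pass. Primary replicate 2 was the highest primary array on all 5 Sfrp1 probe sets, and the lowest for Sfrp2.

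**Figure D2:**
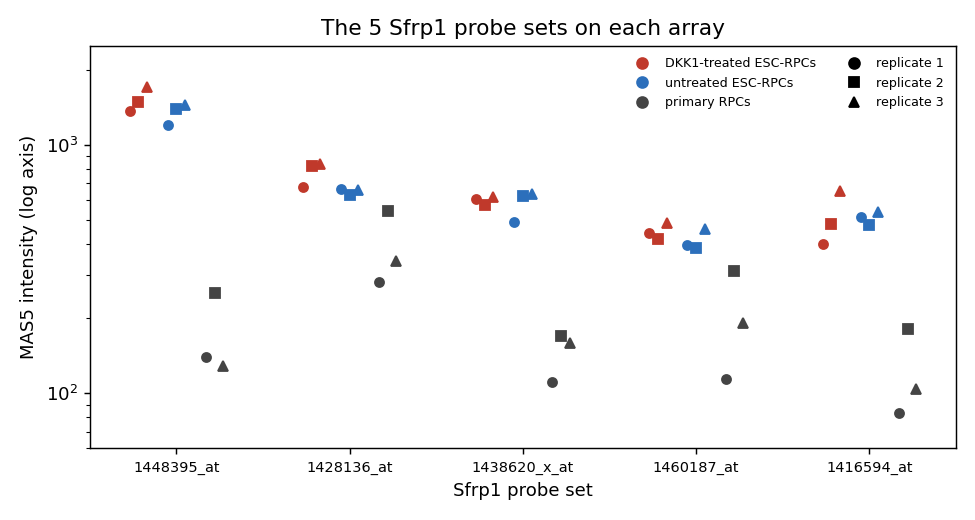
MAS5 intensity on a log axis for the 5 Sfrp1 probe sets, with 3 arrays per group; colour gives the group and symbol the replicate number. Every ESC-RPC array lies above every primary array within each probe set, and the log2 difference of untreated from primary cells ranges from 0.80 for 1428136_at to 3.02 for 1448395_at.

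Sfrp5, another member of the SFRP family, was near or below the dim line everywhere. Probe set 1436075_at measured 43.5 to 47.0 in treated, 38.6 to 49.0 in untreated and 25.0 to 33.4 in primary cells, and 1 of the 9 arrays was above its own line. Probe set 1423023_at measured 4.35 to 17.7 on ESC-RPC arrays and 4.42 to 8.95 on primary arrays. Sfrp5 was not tested, and no direction is given for it.

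Next come the receptors that meet DKK proteins. Kremen1, which removes DKK-bound LRP from the membrane, measured 292, 203 and 230.2 in treated, 239.6, 267 and 226 in untreated and 518, 533 and 467 in primary cells. All primary arrays were higher, with a log2 difference of -1.05 ± 0.15 for untreated (limma adjusted p = 0.000233) and -1.08 ± 0.15 for treated cells (limma adjusted p = 0.000191). A second Kremen1 probe set, 1421387_at, was close to the dim line and was not called, at 47.5 to 77.6 in untreated and 69.9 to 91.7 in primary cells (log2 difference -0.43 ± 0.25, limma adjusted p = 0.187). The third, 1445252_at, was dim on all untreated arrays, and there primary cells were at least 1.58-fold higher (limma adjusted p = 0.0224).

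Lrp5, one of the 2 co-receptors, was dim in ESC-RPCs and just above the line in primary cells. It measured 35.8, 13.0 and 13.7 in treated, 29.1, 4.22 and 21.5 in untreated and 63.7, 75.8 and 58.3 in primary cells. Lrp5 was at least 1.40-fold lower in untreated than in primary cells (limma adjusted p = 0.0250), while the treated comparison did not pass (at least 1.39-fold, limma adjusted p = 0.0577). Lrp5 passed the filter only through the primary arrays, and the fit took its dim ESC-RPC values as measured. These p-values and those that follow for Lrp5 therefore do not set treated apart from untreated cells. The call for untreated cells was lost without untreated replicate 2 (adjusted p = 0.0636), primary replicate 1 (adjusted p = 0.0579) or primary replicate 2 (adjusted p = 0.0615). The treated comparison passed without DKK1-treated replicate 1 (adjusted p = 0.0417) or untreated replicate 2 (adjusted p = 0.0120). It also passed when only the 2 groups compared were fitted (adjusted p = 0.0160) or an offset of 16 was added before log2 (adjusted p = 0.0139).

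Lrp6, the other co-receptor, was above the dim line on every array. It measured 967, 900.3 and 1010.5 in treated, 945, 860.3 and 799.9 in untreated and 792, 711 and 770.1 in primary cells. The log2 difference from primary cells was 0.20 ± 0.10 for untreated cells, which did not pass (limma adjusted p = 0.130), and 0.34 ± 0.10 for treated cells, which did (limma adjusted p = 0.0163). The second Lrp6 probe set, 1451022_at, was called in both, at 0.65 ± 0.17 (adjusted p = 0.0081) and 0.59 ± 0.17 (adjusted p = 0.0131). With the mean of both probe sets the untreated difference was 0.42 and was called (adjusted p = 0.00996). The treated call was lost without DKK1-treated replicate 1 (adjusted p = 0.0540) or replicate 3 (adjusted p = 0.0619).

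The comparison of DKK1-treated with primary cells uses the same primary arrays, so it is no independent repeat of the untreated one. It called 8 of the 9 genes, beside 52.8% of all genes, of which 6 were higher, beside 26%, and 2 lower, beside 26.8%, and all 9 had groups that did not overlap, beside 59.2%. The median log2 difference was 1.48, or 1.42 with bounds, beside -0.01 over all genes, or -0.0046 with bounds. Taking each kept probe set on its own, 16 of 18 were called against primary cells for untreated arrays, beside 47.5% of all probe sets, and 16 of 18 for treated arrays, beside 47.6%. Groups did not overlap for 17 of 18 and 18 of 18 of these probe sets, beside 55.7% and 55.6% of all probe sets.

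**Figure D3:**
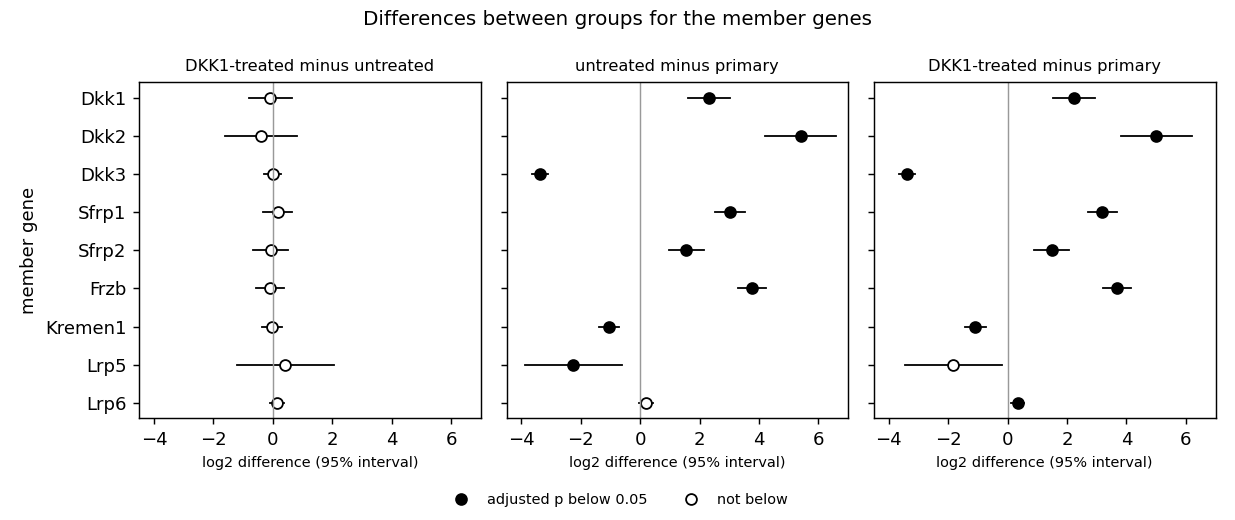
Log2 differences with 95% intervals from limma for the 9 genes, in 3 panels for DKK1-treated minus untreated, untreated minus primary and DKK1-treated minus primary; filled points passed an adjusted p of 0.05. For Dkk1, Dkk2 and Lrp5, which were dim throughout 1 or more groups, and for Frzb, dim on most primary arrays, the fitted difference is not a bound. No gene passed between the ESC-RPC groups, and 8 of 9 passed in each comparison with primary cells.

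One day of DKK1 was set against no treatment to ask whether the antagonists and co-receptors responded at the transcript level. No member was called, and no member's groups were separate: in limma 0 of 9 genes passed, beside 0% of 13320 genes, with 308 genes (2.31%) and no member at an unadjusted p under 0.05 in the fit without the replicate block. For the member groups that did not overlap the count was 0 of 9, beside 12% of all genes. Dkk1 transcript itself measured 128 ± 23.9 (SD, n = 3) in treated and 134 ± 16.9 in untreated cells, a log2 difference of -0.08 with a 95% interval from -0.80 to 0.64.

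The 95% intervals of this fit set how large a response it could have missed. It leaves out the pairing of arrays by number and pools the spread of the primary arrays with that of the ESC-RPC arrays. With only the 2 groups fitted, the standard error fell from 0.54 to 0.37 for Dkk2 and from 0.22 to 0.10 for Sfrp1. It fell from 0.33 to 0.19 for Dkk1, and rose from 0.73 to 0.84 for Lrp5 and from 0.153 to 0.156 for Kremen1. The intervals of the 9-array fit were narrow for Lrp6 (0.15, from -0.08 to 0.37), Dkk3 (-0.01, from -0.29 to 0.27) and Kremen1 (-0.03, from -0.37 to 0.31). For Frzb the difference was -0.11 (from -0.58 to 0.36), for Sfrp1 0.17 (from -0.32 to 0.66) and for Sfrp2 -0.07 (from -0.66 to 0.52). Dkk2 had the widest interval among members bright in both groups, -0.39 (from -1.60 to 0.81). Lrp5 was dim in both groups and has no usable difference.

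Arrays of the ESC-RPC groups with the same replicate number shared part of their deviations. The same number was highest in both groups for 6 of the 9 genes, beside 50% of all genes. Replicate 3 was the highest array in both ESC-RPC groups for 5 of the 9 genes, Dkk1, Dkk2, Sfrp1, Sfrp2 and Frzb, beside 21.8% of all genes. These are the 5 genes that rose in ESC-RPCs relative to primary cells. The summed mesenchyme markers did not follow that order: they were highest in replicate 2 of both groups, at 24625 and 25096. The sums of 3 other lists did. Retinal progenitor markers summed to 18617 in treated and 18927 in untreated replicate 3, and neural progenitor markers to 49037 and 49627. Lens markers summed to 414 and 565, against 164 to 210.0 in the other ESC-RPC arrays, mostly through Cryba1, a crystallin, at 174 and 285 against 11.03 to 50.6. On the treated arrays 5 of the 7 lens genes were below the dim line throughout. The part of these in the members' order was not tested.

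**Figure D4:**
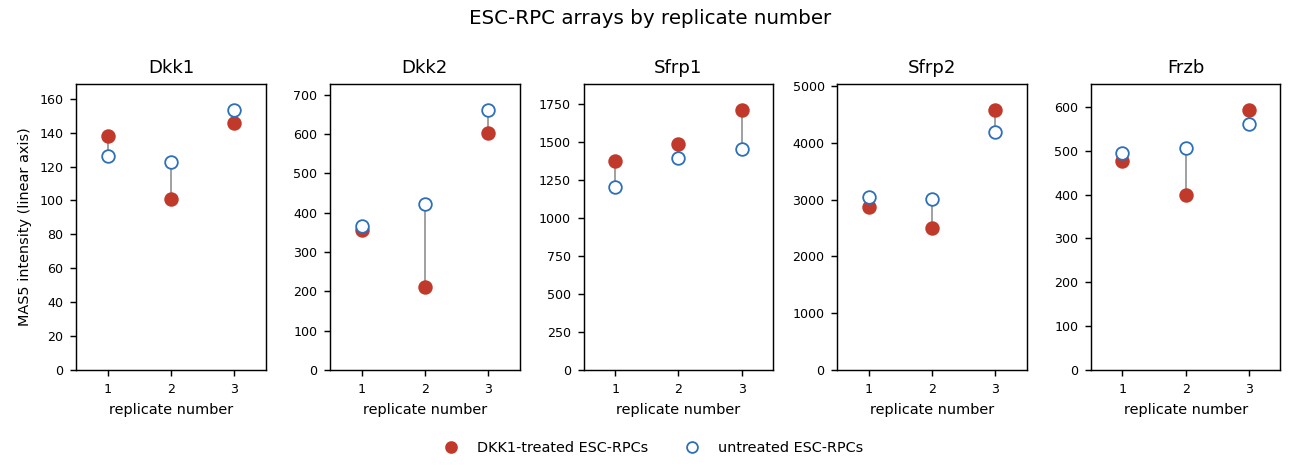
MAS5 intensity on a linear axis from 0 for Dkk1, Dkk2, Sfrp1, Sfrp2 and Frzb on the 6 ESC-RPC arrays, by replicate number, with a grey line joining treated (filled) and untreated (open) arrays of one number. The 5 genes shown were chosen because replicate 3 was highest in both groups; the largest ratio between joined arrays is that of Dkk2 in replicate 2, 210.2 against 423.

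Within same-numbered arrays, Sfrp1 was higher after DKK1 in all 3 pairs, by 0.19, 0.09 and 0.24 on the log2 scale, and Lrp6 was higher in all 3, by 0.03, 0.07 and 0.34. Dkk2 was lower in all 3 pairs, by -0.04, -1.01 and -0.13, so replicate 2 made up most of its difference. These 3 of 9 genes with one sign in every pair stand beside 37.4% of all genes. A fit of the 6 ESC-RPC arrays with the replicate number as a block called none of the 9, beside 0.488% of all genes. At an unadjusted p under 0.05 it held 2 of the 9, beside 15% of all genes. These were Sfrp1 (0.17, 95% interval 0.05 to 0.29, limma adjusted p = 0.16) and Dkk2 (-0.39, 95% interval -0.75 to -0.04, limma adjusted p = 0.29), whose intervals in that fit exclude 0. Other Sfrp1 probe sets gave differences of -0.02 to 0.26 in the fit of 9 arrays, and 1 of the 18 kept member probe sets, 1428136_at of Sfrp1, had groups that did not overlap, at 674, 821 and 838 against 663, 625 and 658 (beside 11.4% of all probe sets).

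The rest of the pathway was described in 4 lists, whose counts are read beside 26.1% of all genes called higher and 26.9% called lower in untreated relative to primary cells, and 26% and 26.8% for treated cells. The first list held 18 other antagonists that act on Wnt proteins or their receptors, of which 12 were tested. In untreated ESC-RPCs relative to primary cells, 7 of these rose and 1 fell (median log2 difference 0.85, beside -0.01 over all genes). Notum and Znrf3 also stand among the feedback targets below, as does Lgr5 of the receptors and agonists. Apcdd1, a membrane-bound inhibitor that binds LRP and Wnt, measured 7733 ± 1103 against 679.6 ± 452. Shisa3, of a family that retains Frizzled in the cell, was at least 8.77-fold higher, and its relative Shisa2 was the 1 that fell, from 2194 ± 613 to 282 ± 45.0. Draxin, which is reported to bind LRP6, rose by 1.06 ± 0.18 in log2 (limma adjusted p = 0.000644). For treated cells against primary cells the counts were 7 and 2 of 12.

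Of 22 tested receptors and agonists, 11 rose and 6 fell in untreated relative to primary cells (median 0.56), and 12 rose and 6 fell in treated cells. The share that fell was close to that of all genes. The Frizzled receptors Fzd1, Fzd7 and Fzd9 rose by 2.59, 1.81 and 2.53 in log2, and Fzd5, the Frizzled of the eye field, fell by 4.64. Of 14 tested genes for LRP maturation and signalling, 4 rose and 4 fell in untreated cells (median 0.01), and 4 rose and 2 fell in treated cells, so the untreated shares were close to those of all genes in both directions. Amer1, a scaffold that supports LRP6 phosphorylation, rose by 1.05, and Gsk3b, a kinase of LRP6 and beta-catenin, rose by 0.39. Dvl2, a Dishevelled that gathers LRP6 into signalosomes, rose by 0.72, and Dab2, an endocytic adaptor reported to act on LRP6, rose by 1.53.

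Of 10 tested feedback targets, which report transcription through the pathway, 8 rose and 2 fell in untreated relative to primary cells (median 1.30), and 7 rose and 2 fell in treated cells (median 0.83). Axin2 rose by 1.70, Tnfrsf19 by 3.43 and Nkd1 by 1.49 in untreated cells, and Sp5 was at least 4.81-fold higher.

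Between treated and untreated cells 0 genes of these 4 lists passed in the fit of 9 arrays, and 0 of the members. Groups did not overlap for 7 of 10 feedback targets, beside 12% of all genes and 0 of the 9 members. The counts were 1 of 12 for the antagonists, 5 of 22 for receptors and agonists and 2 of 14 for LRP maturation and signalling. By their mean log2 values, 9 of the 10 feedback targets were lower in treated cells. The median differences were -0.05 for the antagonists, -0.02 for receptors and agonists, 0.03 for LRP maturation and signalling and -0.31 for feedback targets, beside -0.0018 over all genes. With the replicate block on the 6 arrays, 4 of the 10 feedback targets were called, beside 0.488% of all genes. Among them were Nkd1 (-0.74 ± 0.09, limma adjusted p = 0.00929), Lef1 (-0.54 ± 0.07, adjusted p = 0.0138) and Axin2 (-0.38 ± 0.07, adjusted p = 0.04999). The block on all 9 arrays and the fit of only the 2 groups called 0 of the 10. The 9-array block also applies the numbers to primary arrays, which did not deviate with same-numbered ESC-RPC arrays (r from -0.043 to -2.4e-06). The fit of the 2 groups leaves the pairing out, so neither of these fits checks the 6-array block. With the mean of probe sets, the difference was -0.46 for Nkd1 and -0.35 for Lef1. The replicate block on the 6 arrays also called 1 of the 12 antagonists, Shisa3 (0.67 ± 0.09, limma adjusted p = 0.0183). It measured 673 ± 144 in treated and 433 ± 140.1 in untreated cells. The block on 9 arrays did not call Shisa3 (adjusted p = 0.9997), and without untreated replicate 1 its difference in the fit of the other arrays was 0.37. Znrf3, a ligase that removes Frizzled and LRP6, measured 814 ± 97.2 against 969 ± 79.3 and was not called; its difference of -0.26 turned to 0.99 with the mean of its probe sets. Ndp, a ligand of a Frizzled receptor, measured 230.5 ± 4.14 against 282 ± 12.5, and Lgr5, a receptor for R-spondins, 109.9 ± 11.8 against 142 ± 13.2. Neither was called, and neither were Axin1, a scaffold of the destruction complex (477 ± 86.1 against 580.1 ± 64.7), and Grk6, a receptor kinase (1678 ± 109 against 1449.9 ± 97.1). Whether the members and the feedback targets differed in their response to DKK1 was not tested.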

How the data were processed

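Per the submitters' processing notes, the authors made the deposited intensity values with MAS5; version and settings are not given in the sources used here. In the deposited columns the mean, with 2% of probe sets left out at each extreme, was 500, and no value lay below 1. Values were analysed as log2 without further normalisation. Probe sets were kept when 3 or more of the 9 arrays showed them brighter than that array's 40th percentile, and a gene was its brightest kept probe set (13320 genes). All 9 arrays were fitted with limma 3.58.1 in R 4.3.3, with an intensity trend and Benjamini-Hochberg adjustment, threshold 0.05. "At least" folds set a group dim on all its arrays at their 40th percentiles. Scripts were tested on simulated data.

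Members and lists were chosen with earlier results of these data known. Named were all members, up to 4 genes per pathway list by adjusted p against primary cells, up to 2 by DKK1 treatment, always Axin2, Lef1 and Nkd1, and up to 3 bright genes per marker list, of which Col3a1 is printed; Rax falls outside the rule and was chosen after its values were seen. Same-numbered ESC-RPC arrays deviated together (r = 0.123, 0.195 and 0.318 across genes), so the numbers were taken to pair them. The labels do not state this. Primary arrays did not deviate with ESC-RPC arrays of the same number (r from -0.043 to -2.4e-06), so the numbers do not pair them. Alternatives covered normalisation, filter, probe sets, trend, offset, block and left-out arrays. The limma p-values set a difference between group means against the spread between these arrays.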

Additional observations from a re-analysis of the deposited data

How the results depend on the processing

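The count of called members was 0 of 9 between the ESC-RPC groups under all 19 alternatives, and 7 to 9 against primary cells under 18 alternatives each, with left-out arrays giving 7 to 8 for untreated and 7 to 9 for treated cells. Called probe sets of the members numbered 14 to 16 and called pathway genes 35 to 40. Directions of the 9 members against primary cells did not turn under any of these. Between the ESC-RPC groups, the mean of probe sets turned Kremen1 to 0.13 and Znrf3 to 0.99 on the log2 scale. Leaving out 1 array turned 6 uncalled differences, with ranges of -0.18 to 0.085 for Dkk1, -0.089 to 0.093 for Dkk3, -0.33 to 0.10 for Sfrp2, -0.26 to 0.031 for Frzb, -0.17 to 0.088 for Kremen1 and -0.43 to 0.96 for Lrp5; the cause was not tested. Genes called in all numbered 0, 1 without the intensity trend and 65 with the replicate block on the 6 ESC-RPC arrays; the replicate block on 9 arrays gave 0 members between the ESC-RPC groups and 8 in each comparison with primary cells. The block changed no call of a member. Signal over background limits Lrp5, Sfrp5, the second Dkk1 probe set and Kremen1 1421387_at and 1445252_at. In primary cells it also limits the main Dkk1 probe set, Dkk2 and both Frzb probe sets, which were dim on all or most primary arrays.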
